A study of Mus musculus with 7 samples.

Results

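Interferon-stimulated genes were followed in the dorsal skin of aged mice after topical ABT-263. The set holds 38 genes of 55450 in the count table, namely interferon-induced genes and the chemokines that bind CXCR3, matched to the table's Ensembl identifiers by mouse symbol. All 38 were expressed highly enough to be tested among 17959 genes. Bulk RNA sequencing of polyA RNA compared whole skin of 24-month-old male C57BL/6 mice that received 5 μM ABT-263 in DMSO (n = 3; animals 476, 477 and 478) with skin of mice that received DMSO alone (n = 4; animals 480, 481, 482 and 483). Both groups were wild type, and both were clipped, treated with a depilatory cream, wiped with ethanol and kept under a dressing for the 5 days of treatment, so the controls carry every step except the drug. ABT-263 (navitoclax) inhibits anti-apoptotic Bcl-2 proteins and is used as a senolytic, a drug meant to remove senescent cells. The labels number the libraries without stating that each is a separate animal, so the p-values measure the spread between these 7 libraries.

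Interferons are secreted proteins that cells release when they sense viral or misplaced nucleic acid, or that T cells and natural killer (NK) cells release on activation. Type I interferons bind IFNAR1 and IFNAR2 and act through JAK1, TYK2 and a complex holding STAT2 and IRF9 that binds the interferon-stimulated response element (ISRE), whereas interferon gamma binds IFNGR1 and IFNGR2 and acts through JAK1 and JAK2 on genes with the gamma-activated site (GAS). The genes switched on encode sensors of RNA, antiviral effectors, immune GTPases and chemokines, and in skin both keratinocytes and infiltrating leukocytes can express them. The IFIT, OAS and MX families are classed here as type I-like (11 genes), and Gbp2, Gbp3, Gbp5, Gbp7, Igtp, Irgm1, Cxcl9 and Irf1 as gamma-like (8 genes). The remaining members are in neither class, and many genes of each class respond to both kinds of interferon.

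The letters of both elements were looked for in the RefSeq promoter windows of GRCm38.p6, which run from 250 bases before to 50 bases after each annotated start. Of the 38 members, 29 had a window. The ISRE core, read here as GAAA and GAAA parted by any 2 bases on either strand, was present for 18 of these 29 genes (62.1%) and for 3.99% of all 27025 genes with a window. The GAS letters, TTC and GAA parted by any 3 bases, read the same on both strands and were present for 8 of the 29 (27.6%) and for 9.55% of all genes. The core was found for 5 of 8 type I-like and 6 of 8 gamma-like genes with a window, and the GAS letters for 2 of 8 and 4 of 8. The 2 patterns can share bases with a neighbouring match of the same pattern, and a match is a description of the letters, not evidence of a binding site. The sequences below are 60-base stretches on the gene's strand from type I-like and gamma-like genes and from Isg15 and Cxcl10, shown because genes of both classes carry the same letters. Capitals mark the ISRE core, with overlapping copies run together, and in Irf1 they mark the GAS letters. The last 12 bases of the Gbp2 stretch, which hold its marked letters, precede the RefSeq start but lie in a GENCODE exon of Gbp2.
Ifit1 (chr19:34640769-34640828, + strand): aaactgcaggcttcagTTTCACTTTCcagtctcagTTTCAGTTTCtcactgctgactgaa
Ifit3 (chr19:34583365-34583424, + strand): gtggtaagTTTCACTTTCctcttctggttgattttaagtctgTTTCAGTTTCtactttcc
Ifit3b (chr19:34607761-34607820, + strand): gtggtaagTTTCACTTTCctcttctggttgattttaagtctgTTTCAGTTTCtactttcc
Oas1a (chr5:120907526-120907585, - strand): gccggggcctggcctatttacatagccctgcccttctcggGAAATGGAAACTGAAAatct
Isg15 (chr4:156200856-156200915, - strand): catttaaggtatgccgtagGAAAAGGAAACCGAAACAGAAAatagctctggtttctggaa
Gbp2 (chr3:142620554-142620613, + strand): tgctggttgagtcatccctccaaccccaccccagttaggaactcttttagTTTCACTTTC
Gbp3 (chr3:142559955-142560014, + strand): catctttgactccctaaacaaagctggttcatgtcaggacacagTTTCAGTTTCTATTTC
Gbp5 (chr3:142496744-142496803, + strand): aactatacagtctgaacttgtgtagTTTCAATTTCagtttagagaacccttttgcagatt
Gbp7 (chr3:142530258-142530317, + strand): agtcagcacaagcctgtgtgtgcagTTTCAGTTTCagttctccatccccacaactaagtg
Igtp (chr11:58199496-58199555, + strand): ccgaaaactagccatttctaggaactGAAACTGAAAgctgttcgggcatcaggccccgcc
Cxcl10 (chr5:92349068-92349127, - strand): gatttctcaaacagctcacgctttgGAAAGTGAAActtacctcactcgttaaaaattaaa
Irf1 (chr11:53769898-53769957, + strand): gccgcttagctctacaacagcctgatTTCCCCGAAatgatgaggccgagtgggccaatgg
The stretches of Ifit3 and Ifit3b are identical, and neither pattern was found in the window of Cxcl9, the gene with the largest log2 fold change of the set. The median log2 fold change after ABT-263 was 2.00 over the 18 genes with the core, 1.71 over the 11 without it and 1.91 over the 9 members with no window.

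The libraries held between 20344364 and 26824123 counts after DMSO and between 27325963 and 43562330 after ABT-263. The labelled tissue matched its markers, with 8 keratinocyte genes summing to between 19515 and 67291 CPM (counts of a gene scaled to a common library size) and 5 fibroblast genes to between 3692 and 8073. Spearman correlations across genes ran from 0.954 to 0.987 between libraries of one treatment and reached 0.974 between treatments. Mouse 481 stood apart among the controls, with 7 hair follicle genes summing to 2151 CPM against 53.4 to 57.4 in the other DMSO mice, and it was the lowest of all 7 mice for 30 of the 38 members (16.8% of all genes tested). Mouse 476 stood apart among treated mice and was the highest of all 7 for 37 of 38 members (21% of all genes tested), Mx1 being the exception. Counts are therefore also given without these mice. Whole-tissue RNA cannot tell more cells that express a gene from more of its RNA per cell.

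ABT-263 treated skin held more RNA of most interferon-stimulated genes. By edgeR's quasi-likelihood test with Benjamini-Hochberg adjustment over all genes tested, 23 of the 38 members were higher at an adjusted p under 0.05 and 0 were lower, against 12.4% of all genes tested that were higher and 11.7% that were lower. By DESeq2's Wald test 28 were higher and 0 lower, against 16.9% and 16.2% of all genes. Gbp2, Cxcl9 and Cxcl10 received no adjusted p from that test. Zbp1, Irf1, Irf7, Stat2, Isg15, Oas3, Mx2 and Xaf1 passed it but not edgeR's test, with DESeq2 adjusted p from 0.00237 to 0.0478. Where single genes are described below, passing refers to edgeR's test unless DESeq2 is named. At an unadjusted p under 0.05, 32 members passed in edgeR, against 40.1% of all genes in either direction, and all 32 had a positive log2 fold change. The log2 fold change was positive for 38 of 38 members (50.1% of all genes tested), with a median of 1.84 against 0.00 over all genes tested, and it ran from 0.28 for Ifi35 to 5.31 for Cxcl9. For 25 members every ABT-263 mouse lay above every DMSO mouse, which was so for 18.7% of all genes tested.

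The size of the response differed strongly between the 3 treated mice. Mouse 476 lay above all 4 DMSO mice for 38 members, mouse 478 for 33 and mouse 477 for 25, where the shares of all genes tested were 33.3%, 33.8% and 28.8%. The ratio of mouse 476 to the mean of mice 477 and 478 had a median of 2.98 over the members and of 0.979 over all genes tested. Without mouse 476 the median log2 fold change was 1.05, 35 of 38 members stayed positive and 8 were called higher (6.01% of all genes), namely Ifih1, Ifit2, Cmpk2, Parp14, Gbp2, Gbp3, Irgm1 and Cxcl10, all among the 23. The number called higher was 5 without mouse 481 (7.95% of all genes), 3 without 482 (4.8%), 4 without 483 (5.58%), 12 without 478 (5.22%), 20 without 480 (11.6%), 27 without 477 (12.3%) and 5 without both 476 and 481 (4.69%). It was 8 when no filter on low counts was applied (6.11%). Ifih1 and Ifit2 passed in all 7 fits that left out 1 mouse, Cmpk2 and Parp14 in 6, and 9 members in none.

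**Figure D1:**
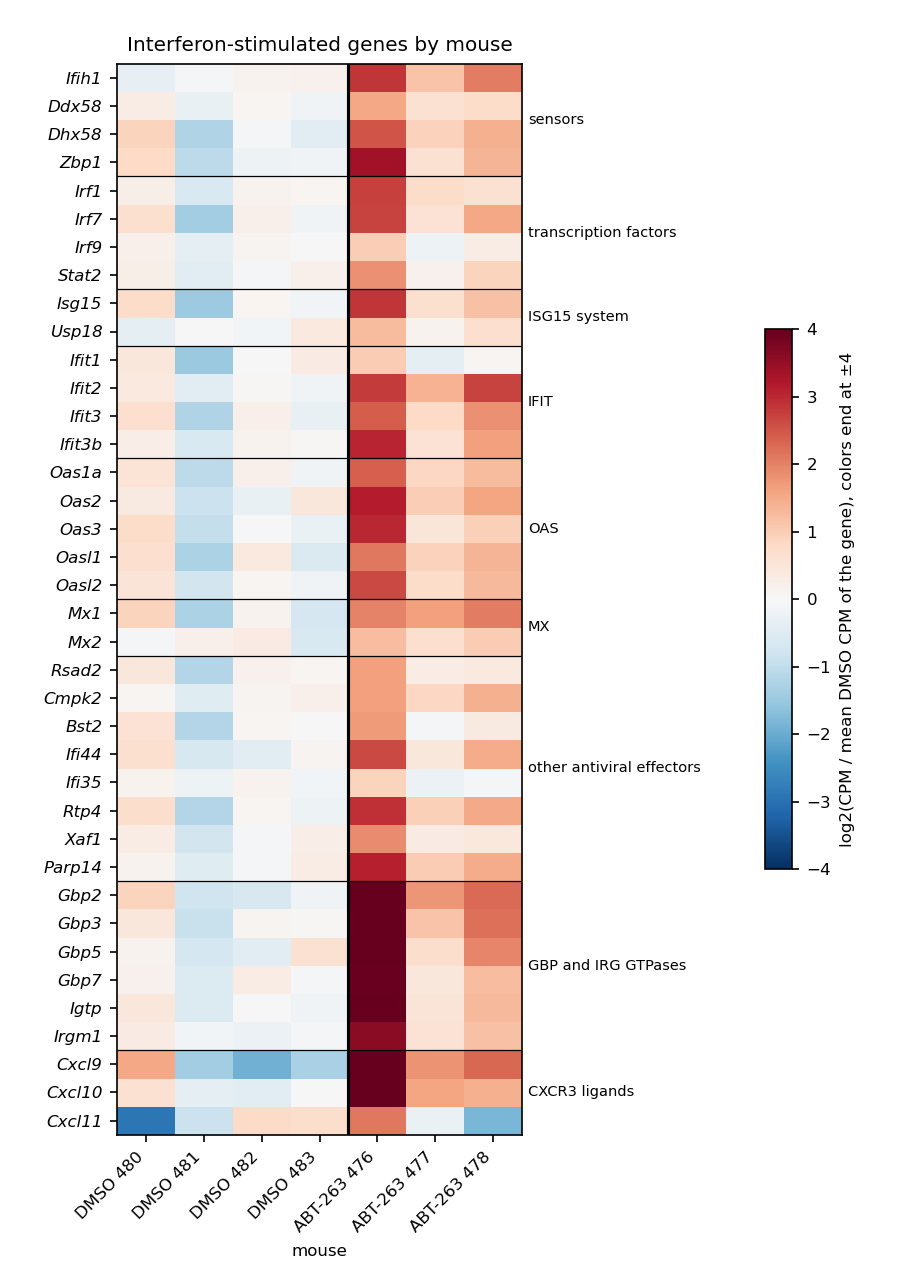
Rows are the 38 genes grouped by role and columns are the 7 mice. Color gives log2 of the CPM over the gene's mean CPM in the DMSO mice, and colors end at ±4. The column of mouse 476 is the darkest red, that of mouse 478 is intermediate and that of mouse 477 is palest, while DMSO mouse 481 is blue for most genes.

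Among the cytosolic sensors of nucleic acid, 3 of 4 rose, their log2 fold changes having a median of 1.97, and 1 was called when any one of mice 476, 478, 481, 482 or 483 was left out. Of all genes tested 12.4% were called higher with all mice, and 4.8% to 7.95% in those fits. In the sentences that follow, CPM values are given for mice 480, 481, 482 and 483 after DMSO and then for mice 476, 477 and 478 after ABT-263, and changes are log2 fold changes ± 1 standard error of the fit. Ifih1, which encodes the long double-stranded RNA sensor MDA5, stood at 3.76, 4.59, 5.29 and 5.34 CPM after DMSO and at 34.2, 10.5 and 19.5 CPM after ABT-263. Its mean was 4.75 ± 0.738 CPM (SD, n = 4) against 21.4 ± 11.9 CPM (SD, n = 3). The groups did not overlap, and the change was 2.17 ± 0.36 (adjusted p = 0.00899). Ddx58, which encodes RIG-I, a sensor of RNA with 5′ triphosphates, measured 11.7, 7.63, 9.96 and 8.54 CPM against 27.6, 14.3 and 15.8 CPM. It rose by 1.02 ± 0.26 (adjusted p = 0.0281), with every treated mouse above every control and mice 477 and 478 close together. Dhx58, which encodes LGP2, a regulator of the other sensors, measured 10.1, 2.36, 5.29 and 3.98 CPM against 30.8, 10.2 and 14.5 CPM, a rise of 1.76 ± 0.53 (adjusted p = 0.0481). Mouse 477 lay only just above mouse 480 for this gene. Zbp1, which encodes a sensor of Z-form nucleic acid that can trigger necroptosis, lay between 4.55 and 16.3 CPM in control skin and between 14.4 and 97.0 CPM in treated skin. Its groups overlapped and its log2 fold change of 2.26 ± 0.69 did not pass the test (adjusted p = 0.0502).

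None of the 4 transcription factors passed edgeR's test, by which 12.4% of all genes tested were higher, although their median log2 fold change was 1.41. DESeq2's Wald test called Irf1, Irf7 and Stat2 higher (adjusted p = 0.00495, 0.00442 and 0.0169). Irf1, a factor induced through GAS, measured 38.9, 22, 36.8 and 35.4 CPM after DMSO and 221, 54.9 and 50.4 CPM after ABT-263. The groups did not overlap, and most of the difference in means came from mouse 476, with a change of 1.71 ± 0.53 (adjusted p = 0.0505) that was 0.67 without that mouse. Irf7, which drives further interferon alpha transcription, measured 42.8, 10.4, 31.1 and 24.7 CPM against 176, 40.3 and 79.0 CPM. Mouse 477 lay below mouse 480, and the log2 fold change was 1.85 ± 0.57 (adjusted p = 0.0514). Stat2, a subunit of the ISRE-binding complex, measured 25.7, 16.1, 20.6 and 25.2 CPM against 77.8, 24.9 and 40.2 CPM. Its groups overlapped too, with a log2 fold change of 1.12 ± 0.36 (adjusted p = 0.0572). Irf9, the DNA-binding subunit of the same complex, ran from 23.7 to 35.0 CPM and from 26.4 to 60.2 CPM, with a log2 fold change of 0.44 ± 0.27 (adjusted p = 0.255).

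The 2 genes of the ISG15 system did not pass edgeR's test either, while DESeq2's Wald test called Isg15 higher (adjusted p = 0.00742). Isg15, a ubiquitin-like protein that is joined to other proteins, measured 19.1, 4.26, 12.2 and 10.6 CPM after DMSO and 83.1, 18.1 and 25.9 CPM after ABT-263. Mouse 477 lay below mouse 480, and the log2 fold change was 1.87 ± 0.62 (adjusted p = 0.0628). Usp18, the protease that removes ISG15 and also restrains type I receptor signaling, ran from 4.01 to 6.90 CPM and from 5.82 to 12.7 CPM, with a log2 fold change of 0.77 ± 0.30 (adjusted p = 0.0933).

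The IFIT proteins bind viral RNA and block its translation, and their 4 genes lie together between chr19:34550694 and chr19:34650009. Of these, 3 rose, or 1 without any one of mice 476, 478, 481, 482 or 483, and the members of this cluster differed widely among themselves. The share of all genes called higher was 12.4%, or 4.8% to 7.95% in those fits. Ifit2 measured 3.68, 2.11, 2.93 and 2.59 CPM after DMSO and 19.5, 7.46 and 18.6 CPM after ABT-263. This was one of the few members for which mouse 478 nearly equalled mouse 476, and it had the smallest adjusted p of the set, with a change of 2.42 ± 0.36 (adjusted p = 0.00713) that was 2.21 without mouse 476. Ifit3 measured 21.1, 5.77, 15.4 and 10.9 CPM against 71.0, 23.1 and 47.3 CPM, a rise of 1.82 ± 0.49 (adjusted p = 0.0336). Ifit3b measured 3.44, 1.85, 3.13 and 2.96 CPM against 23.4, 4.23 and 8.91 CPM, a rise of 2.09 ± 0.53 (adjusted p = 0.0288). These are near copies, with 51.2% of the 50-base windows of Ifit3 and 45% of those of Ifit3b also present in another gene, so the split of reads between them is uncertain. Ifit1 measured 26.5, 6.83, 19.6 and 24.2 CPM against 39.0, 15.2 and 20.6 CPM. Only mouse 476 lay above the controls for Ifit1, and the log2 fold change of 0.37 ± 0.48 did not pass (adjusted p = 0.604) and was -0.10 without that mouse.

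The OAS enzymes make the short oligoadenylates that activate RNase L, and 4 of their 5 genes rose, all on chromosome 5. None of the 5 was called without any one of mice 476, 481, 482 or 483, and 1 was called without mouse 478. Among all genes tested, 12.4% were called higher with all mice and 4.8% to 7.95% in those fits. Oas1a measured 9.29, 3.12, 7.34 and 5.83 CPM after DMSO and 33.4, 11.2 and 15.4 CPM after ABT-263, a rise of 1.64 ± 0.45 (adjusted p = 0.0363). Since 57.6% of its 50-base windows occur in other genes, chiefly Oas1g, its level is uncertain. Oas2 measured 3.60, 1.56, 2.31 and 3.86 CPM against 25.1, 5.65 and 8.55 CPM, a rise of 2.20 ± 0.54 (adjusted p = 0.0268). Mouse 476 was about 3.53 times the mean of the other treated mice for Oas2, yet all 3 lay above the controls. Oasl1, which encodes an OAS-like protein without the enzymatic activity, measured 5.65, 1.47, 4.67 and 2.34 CPM against 15.2, 6.65 and 9.07 CPM. Its adjusted p of 0.049996 was the largest of the 23 that passed, with a change of 1.54 ± 0.48. Oasl2 measured 20.9, 8.64, 15.4 and 13.1 CPM against 90.5, 24.0 and 35.5 CPM, a rise of 1.78 ± 0.47 (adjusted p = 0.0333) in which every treated mouse exceeded every control. Oas3 ran from 1.90 to 6.02 CPM and from 5.12 to 29.1 CPM, and its log2 fold change of 1.92 ± 0.65 did not pass (adjusted p = 0.0657).

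Mx1 and Mx2 encode dynamin-like GTPases that act on viral nucleocapsids. Mx1 measured 2.05, 0.463, 1.232 and 0.698 CPM after DMSO and 4.43, 3.48 and 4.60 CPM after ABT-263. It was the member on which the treated mice differed least, with a mean of 1.11 ± 0.702 CPM (SD, n = 4) against 4.17 ± 0.604 CPM (SD, n = 3). Its rise of 1.91 ± 0.46 (adjusted p = 0.0242) was nearly as large without mouse 476, at 1.87, although the adjusted p was then 0.0578. Mx2 ran from 0.616 to 1.18 CPM and from 1.51 to 2.25 CPM, without overlap, and its log2 fold change of 1.00 ± 0.33 did not pass (adjusted p = 0.0602). The C57BL/6 strain carries a broken Mx1 gene, and the annotation lists Mx2 as a polymorphic pseudogene, so RNA of these genes says nothing of working protein.

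Of 8 other antiviral effectors 4 rose, their log2 fold changes having a median of 1.21, and 2 were called without mouse 476, 481 or 483 and 1 without mouse 478 or 482. The share of all genes called higher was 12.4% with all mice and 4.8% to 7.95% in those fits. Cmpk2, a mitochondrial nucleotide kinase, measured 2.66, 1.81, 2.72 and 2.88 CPM after DMSO and 7.79, 4.46 and 6.79 CPM after ABT-263. The treated mice lay close together for this gene, which rose by 1.33 ± 0.27 (adjusted p = 0.0144). Parp14, an ADP-ribosyl transferase, measured 11.7, 7.58, 10.3 and 13.2 CPM against 93.3, 21.5 and 29.99 CPM, a rise of 2.17 ± 0.49 (adjusted p = 0.0211). Ifi44 measured 2.13, 0.885, 1.03 and 1.48 CPM against 8.69, 1.89 and 3.87 CPM, a rise of 1.79 ± 0.53 (adjusted p = 0.0431). It passed although mouse 477 lay below mouse 480. Rtp4, a chaperone of receptors that also binds viral RNA, measured 13.9, 3.75, 8.88 and 7.31 CPM against 63.9, 16.3 and 24.4 CPM, a rise of 2.04 ± 0.55 (adjusted p = 0.0351). Of its exonic bases 13.9% overlap the predicted gene Gm45338, so part of its reads may have been left out or assigned there.

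The 4 effectors that did not pass included the members with the highest control levels per length of transcript. Bst2 (tetherin), which holds budding virus at the cell surface, averaged 68.4 CPM per kilobase of exon after DMSO, and Ifi35 averaged 33.6, the first and second in rank of the 38 members. Bst2 lay between 27.5 and 91.8 CPM in control skin and between 59.9 and 203 CPM in treated skin, with a log2 fold change of 0.88 ± 0.50 (adjusted p = 0.228). Ifi35 ran from 50.1 to 64.6 CPM and from 49.3 to 108 CPM, and its log2 fold change of 0.28 ± 0.27 (adjusted p = 0.462) was the smallest of the set and -0.15 without mouse 476. Rsad2 (viperin), which makes a chain-terminating nucleotide and neighbours Cmpk2 on chromosome 12, ran from 5.01 to 15.5 CPM and from 13.7 to 34.9 CPM. Its log2 fold change was 0.91 ± 0.44 (adjusted p = 0.166). Xaf1, a pro-apoptotic partner of XIAP, ran from 5.31 to 10.8 CPM and from 11 to 32.7 CPM without overlap, with a log2 fold change of 1.08 ± 0.43 (adjusted p = 0.0993).

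The GBP and IRG families, GTPases that attack the membrane-bound compartments of intracellular bacteria and parasites, had 6 of 6 genes higher and 6 of 6 without overlap, with a median log2 fold change of 3.12. Of all genes tested 12.4% were higher and 18.7% had every treated mouse above every control. Of the 6, 0 passed without mouse 481, 482 or 483 or with no filter on low counts, 2 without mouse 480 and 3 without mouse 476. Without mouse 481, 482 or 483 their median log2 fold change was 2.94, 3.14 and 3.10. The share of all genes called higher was then 7.95%, 4.8% and 5.58%. It was 11.6% without mouse 480, 6.01% without mouse 476 and 6.11% with no filter. Gbp2 (chr3:142620602-142638008) measured 22.7, 6.99, 7.85 and 10.9 CPM after DMSO and 611, 41.5 and 57.9 CPM after ABT-263. The value of mouse 476 was 12.3 times the mean of the other treated mice, and the change was 4.29 ± 1.02 (adjusted p = 0.0259), or 2.04 without mouse 476 (adjusted p = 0.0425, in a range of 0.0202 to 0.0946 over the alternatives that gave one, which DESeq2 did not). Gbp3 measured 8.14, 3.20, 6.47 and 6.16 CPM against 130, 13.1 and 27.8 CPM, a rise of 3.25 ± 0.75 (adjusted p = 0.0235). Gbp5, which also assists inflammasome assembly, measured 2.17, 1.22, 1.49 and 3.04 CPM against 54.8, 3.25 and 7.67 CPM. For Gbp5 mouse 477 was barely above mouse 483, and the rise was 3.46 ± 0.92 (adjusted p = 0.0343). Gbp7 measured 9.58, 5.81, 10.4 and 8.13 CPM against 130, 11.7 and 19.8 CPM, a rise of 2.67 ± 0.78 (adjusted p = 0.0440), and 11.4% of its exonic bases overlap the predicted gene Gm43802. These 4 genes form part of one cluster on chromosome 3. Igtp (Irgm3) measured 20.4, 10.2, 15 and 13.5 CPM against 293, 20.9 and 36.2 CPM, a rise of 2.98 ± 0.86 (adjusted p = 0.0440), with mouse 477 only just above mouse 480. Its exons overlap those of its neighbour Irgm2 over 8.01% of their bases. Irgm1 measured 17.8, 13.3, 12.1 and 13.8 CPM against 174, 21.2 and 32.1 CPM, a rise of 2.41 ± 0.68 (adjusted p = 0.0395).

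Of the 3 chemokines that draw CXCR3-bearing T cells and NK cells, which lie side by side between chr5:92321347 and chr5:92365485, 2 rose, or 1 without any one treated mouse and 0 without mouse 481, 482 or 483 or with no filter on low counts. Of all genes tested, 12.4% were called higher with all mice and 4.8% to 12.3% in those fits. Cxcl9 measured 6.79, 0.885, 0.616 and 0.945 CPM after DMSO and 258, 8.07 and 11.3 CPM after ABT-263. All treated mice lay above all controls, but mouse 476 was 26.7 times the mean of the other treated mice and mouse 480 stood well above the other controls. The log2 fold change was 5.31 ± 1.55 (adjusted p = 0.0477), and without mouse 476 it was 2.06 and did not pass (adjusted p = 0.214, in a range of 0.033 to 0.270 over the alternatives that gave one, which DESeq2 did not). Cxcl10 measured 4.30, 2.15, 2.10 and 2.79 CPM against 54.1, 8.54 and 7.52 CPM. It rose by 3.03 ± 0.73 (adjusted p = 0.0254) and by 1.5 without mouse 476, and DESeq2 gave it no adjusted p. Cxcl11, for which the annotation lists a polymorphic pseudogene, measured 0.0409, 0.169, 0.513 and 0.493 CPM against 1.32, 0.252 and 0.0859 CPM. It was the least expressed member per kilobase, its groups overlapped, and its log2 fold change of 0.82 ± 1.01 (adjusted p = 0.580) became -0.82 without mouse 476. Cxcr3, the shared receptor, is not in the set and measured 1.06, 0.506, 1.18 and 0.698 CPM against 3.61, 2.19 and 2.62 CPM, a rise of 1.70 ± 0.37 (adjusted p = 0.0171). Without mouse 476 its log2 fold change was 1.49 and did not pass, while it passed without any other single mouse.

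**Figure D2:**
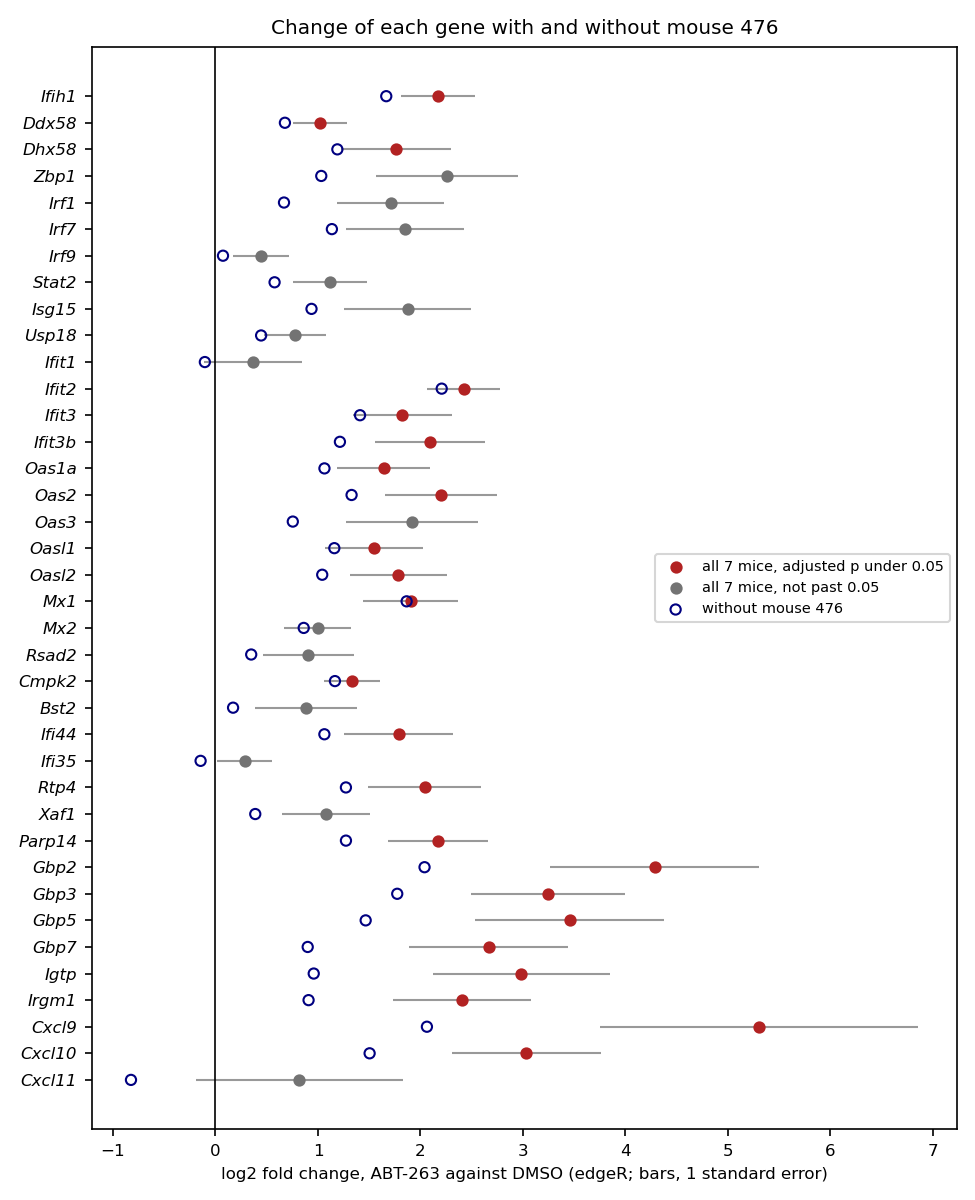
Each row is 1 gene, and the x axis is the log2 fold change of ABT-263 against DMSO with bars of 1 standard error. Filled points use all 7 mice (red, adjusted p under 0.05; grey, not past it) and open points leave out mouse 476. All filled points lie above 0, the GBP genes, Igtp, Cxcl9 and Cxcl10 lie farthest to the right, and leaving out mouse 476 moves Cxcl9 and Gbp2 far to the left, while Mx1, Ifit2 and Cmpk2 hardly move.

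The gamma-like genes changed more than the type I-like genes on average, and the difference rested on 1 mouse. Of the type I-like genes 8 of 11 were higher, where 12.4% of all genes tested were higher. Their log2 fold changes ran from 0.37 to 2.42 around a median of 1.82. The type I-like count was 1 without mouse 476, 482 or 483, 2 without mouse 478 or 481 and 4 with no filter on low counts. Of the gamma-like genes 7 of 8 were higher, with a median of 3.12 and a range of 1.71 to 5.31, and the gap between the medians was 1.29. Their count was 0 without mouse 481, 482 or 483 or with no filter, and 3 without mouse 476 or 480. The share of all genes called higher was 6.01% without mouse 476, 5.22% without 478, 11.6% without 480 and 7.95% without 481. It was 4.8% without mouse 482, 5.58% without 483 and 6.11% with no filter. Relative to each gene's mean DMSO level, the median log2 ratio of the type I-like genes was 0.52, -0.94, 0.14 and -0.14 in DMSO mice 480 to 483 and 2.42, 0.80 and 1.36 in ABT-263 mice 476 to 478. That of the gamma-like genes was 0.38, -0.65, -0.11 and -0.05 in the DMSO mice and 4.38, 0.72 and 1.62 in the ABT-263 mice. Both classes thus stood above every control in all 3 treated mice, and within a mouse they differed by 1.96 in mouse 476 and by -0.08 and 0.27 in mice 477 and 478, where the DMSO mice spanned -0.25 to 0.29. The ratio of mouse 476 to the mean of the other treated mice ran from 1.10 to 4.76 over the type I-like genes, with a median of 2.18, and from 4.20 to 26.7 over the gamma-like genes, with a median of 9.15. Without mouse 476 the medians of the log2 fold change were 1.16 and 1.21 and the gap was 0.05. Without both 476 and 481 they were 0.93 and 1.07. The class difference rests on a comparison of 2 gene lists, so no test of it was made.

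**Figure D3:**
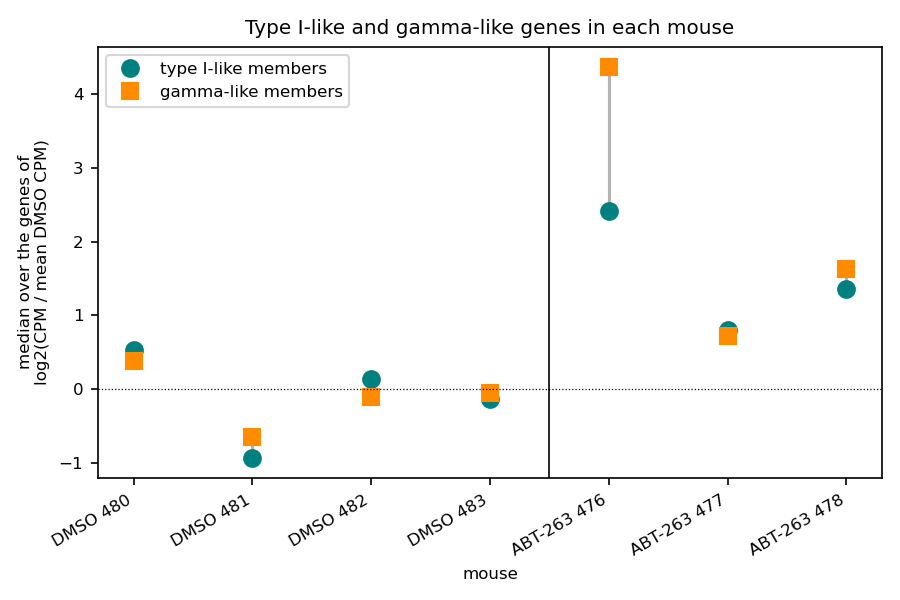
The x axis lists the 7 mice and the y axis is the median, over the 11 type I-like genes (circles) or the 8 gamma-like genes (squares), of log2 of CPM over the gene's mean DMSO CPM. Grey lines join both medians of a mouse. The classes lie within 0.29 of each other in every mouse except 476, where the gamma-like median is 1.96 higher.

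RNA of the interferons themselves was near or below the limit of detection. None of the 10 ligand genes examined reached the level needed for a test. Ifnb1, Ifne, Ifna1, Ifna4, Ifna5, Ifnl2 and Ifnl3 had 0 counts in all 7 libraries, which allows up to 3 counts, or 0.0644 to 0.154 CPM depending on the library, and Ifna2 had 1 count in mouse 477. Ifnk, the interferon kappa of keratinocytes, had 1, 6, 0 and 0 counts after DMSO and 0, 4 and 0 after ABT-263. Ifng, which encodes interferon gamma, had 4, 0, 2 and 0 counts in the DMSO mice and 33, 3 and 3 in the ABT-263 mice. Mouse 476, the mouse with the largest gamma-like response, therefore held most of the Ifng counts, while mice 477 and 478 were within the range of the controls. Such counts include counting error, and 26.0% of the exonic bases of Ifng overlap the predicted gene Gm49751.

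The receptors and the genes that carry their signal changed in part. Of 15 genes tested 7 were higher and 1 was lower, against 12.4% and 11.7% of all genes tested. Their median log2 fold change was 0.80. Ifnar1 and Ifnar2, the type I receptor chains, rose by 0.98 ± 0.22 (adjusted p = 0.0199) and by 1.25 ± 0.37 (adjusted p = 0.0452). Ifnar1 measured 19.2, 18.6, 18.3 and 17.0 CPM after DMSO and 51.0, 25.1 and 32.3 CPM after ABT-263, a clear separation against tight controls. Ifngr1, the ligand-binding chain for interferon gamma, measured 39.4, 48.2, 51.6 and 49.7 CPM against 168, 61.6 and 107 CPM and rose by 1.25 ± 0.30 (adjusted p = 0.0235). Its partner Ifngr2 averaged 95.2 ± 10.8 CPM (SD, n = 4) and 80.9 ± 6.97 CPM (SD, n = 3) and did not pass. Ifnlr1, the receptor chain for interferon lambda, which acts mainly on epithelia, fell by 0.91 on the log2 scale (adjusted p = 0.0487), a call held in 1 of the 7 fits that left out 1 mouse. The kinase genes Jak1, Jak2 and Tyk2 rose by 0.68 ± 0.15, 1.55 ± 0.31 and 0.47 ± 0.15, with adjusted p of 0.0196, 0.0138 and 0.0490, and Jak2 passed in all 7 of those fits. Jak2 measured 13.9, 16.6, 13 and 15.3 CPM against 68.5, 25.7 and 34.9 CPM.

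Socs3, a feedback inhibitor of cytokine receptors that is also induced by interleukin-6 family cytokines, measured 16.1, 13.3, 15.2 and 36.3 CPM against 329, 45.6 and 55.9 CPM. It rose by 2.83 ± 0.75 (adjusted p = 0.0333) and by 1.33 without mouse 476. Socs1, the main inhibitor of interferon gamma signaling, measured 9.70, 8.09, 9.34 and 12.4 CPM against 49.4, 14.0 and 10.3 CPM. Mouse 478 lay among the controls for Socs1, and the log2 fold change of 1.31 ± 0.51 did not pass (adjusted p = 0.0968).

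**Figure D4:**
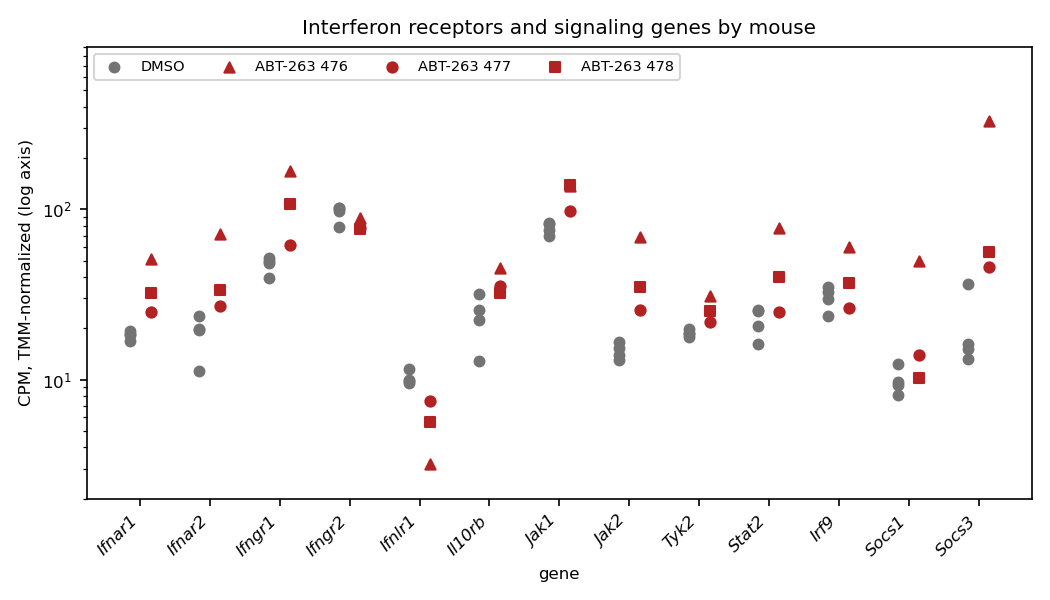
The y axis is CPM on a log axis for receptor and signaling genes and for the members Stat2 and Irf9. Grey circles are the 4 DMSO mice and red symbols are the 3 ABT-263 mice (triangle 476, circle 477, square 478). Ifnar1, Jak2 and Ifngr1 separate the groups in every mouse, Ifnlr1 lies lower in every treated mouse, and the triangle of mouse 476 stands far above the others for Socs1 and Socs3.

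Genes upstream of interferon, which sense nucleic acid or relay its detection, changed in part. Over the 15 tested the median log2 fold change was 0.70, and of all genes tested 12.4% were higher and 11.7% lower. Of the 15, 5 were higher and 0 lower. These were Sting1, the adaptor of the cGAS pathway (1.98 ± 0.48, adjusted p = 0.0254), Tbk1, the kinase that activates IRF3 (1.09 ± 0.20, adjusted p = 0.0105), Irf8, a myeloid factor (2.10 ± 0.40, adjusted p = 0.0133), Myd88, the Toll-like receptor adaptor (0.96 ± 0.29, adjusted p = 0.0477), and Adar, an RNA editor (0.70 ± 0.21, adjusted p = 0.0469). Tbk1 and Irf8 passed in all 7 fits that left out 1 mouse. Cgas, Mavs and Irf3 had log2 fold changes of -0.33, 0.19 and -0.01 and did not pass. Trex1 had 0 counts in every library, and all of its exonic bases overlap Atrip, so it cannot be read here.

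A further list of 49 interferon-induced genes outside the set was examined beside the members. Of these, 43 were tested, and 23 were higher and 0 lower, against 12.4% and 11.7% of all genes tested. The median log2 fold change was 1.64, or 0.86 without mouse 476. Gbp6 rose by 5.24 ± 1.21 (adjusted p = 0.0232), Ifitm1 by 3.94 ± 0.87 (adjusted p = 0.0210) and Ifi47 by 3.00 ± 0.70 (adjusted p = 0.0242). Samd9l, Parp9, Gbp9, Lgals3bp and Ifi204 passed in all 7 fits that left out 1 mouse. Ifitm3, an endosomal block to virus entry with the high level of 242 ± 54.2 CPM (SD, n = 4) after DMSO, averaged 607 ± 350 CPM (SD, n = 3) after ABT-263 and rose by 1.33 ± 0.36 (adjusted p = 0.0339). Other genes that rose were Ifi205, Ifi209, Isg20, Trim21, Trim30a, Parp12, Dtx3l, Ciita, Gbp8, Tgtp1, Tgtp2, Phf11b, Phf11d and Slfn8, among which Tgtp1 and Tgtp2 are near copies that share most of their sequence. Eif2ak2 (PKR), Trafd1, Trim25, Oas1b and Oas1c had log2 fold changes between -0.21 and 0.17 and did not pass. Gbp10, which the count filter removed, had 0, 1, 1 and 5 counts after DMSO and 1067, 7 and 76 after ABT-263.

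Marker genes of several cell types differed between the groups as well. For the counts that follow, the shares of all genes tested were 12.4% higher and 11.7% lower. With 1 mouse left out, 4.8% to 12.3% of all genes were called higher. Of 10 macrophage markers 7 were higher. They summed to between 446 and 1314 CPM in control skin and to 4560, 1511 and 2190 CPM in mice 476, 477 and 478. The 7 calls became 4 without mouse 481 or 482, 3 without 476 or 478 and 1 without 483. Of 6 neutrophil markers tested among 9 listed, 3 were higher, and the sum ran from 101 to 1822 CPM and from 5098 to 8390 CPM, with 1 call left without mouse 476, 482 or 483. The count filter removed Ly6g, Camp and Ltf. They had 391, 128 and 231 counts in mouse 476 and at most 12 in the other treated mice. None of 8 T cell markers tested of 9 passed, with sums of 14.3 to 26.9 CPM after DMSO and of 64.0, 22 and 13.9 CPM after ABT-263. Of 5 NK cell markers tested of 8, Gzma and Gzmb were higher, with list sums of 4.03 to 8.30 CPM and of 36.9, 4.18 and 5.63 CPM, and Ncr1 had 0 counts in all DMSO mice and 8, 1 and 6 in the ABT-263 mice. Neither Gzma nor Gzmb was called without mouse 476, 481, 482 or 483, 1 of them was without 478 or 480, and the median log2 fold change of the NK cell markers was -0.47 without mouse 476. Mouse 476 had the highest macrophage, neutrophil, endothelial, T cell and NK cell sums as well as the highest Ifng count. Its keratinocyte sum was the lowest of all mice, at 19515 CPM against 26275 to 67291 CPM in the others. Of the 8 keratinocyte markers 1 was higher and 0 were lower. The fibroblast sum of mouse 476 was the lowest among the treated mice. Of 4 plasmacytoid dendritic cell markers tested of 6, 0 were higher and Tcf4 was lower, and Siglech, their defining marker, ran from 0.368 to 1.29 CPM over all mice. All 5 endothelial markers were higher, with sums of 124 to 275 CPM after DMSO and of 415 to 540 CPM after ABT-263, and 3 were called without mouse 478 or 482. Of 5 fibroblast markers 3 were higher, with sums of 3692 to 5135 CPM in control skin and of 5768, 6114 and 8073 CPM in mice 476, 477 and 478. All 5 skeletal muscle markers had negative log2 fold changes and Tnnt3 was lower, with sums of 23485 to 50742 CPM in control skin and of 16729 to 25805 CPM in treated skin, and 0 were called without any one of the mice except 480. The part of these cell types in the changes of the interferon-stimulated genes was not tested.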

How the data were processed

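The authors aligned reads to mm10 with STAR 2.7.9a and counted uniquely aligned, same-strand proper pairs over non-mitochondrial Ensembl genes (annotation build 109) with featureCounts (Subread 1.6.2), and the deposited values used here are these raw counts. A deposited table of variance-stabilized values was not used. Symbols, positions, exon lengths and overlaps came from GENCODE M21 (GRCm38), which held 55190 of the 55450 genes. The exon overlaps given above therefore describe M21 and may differ in the annotation on which reads were counted. Sting1 was matched under its older symbol and Mnda was not matched. Genes were kept by edgeR's filterByExpr (minimum count 10), which left 17959. Normalization was TMM, CPM are TMM-scaled, and groups were compared with the edgeR 4.0.16 quasi-likelihood test (robust, R 4.3.3), with Benjamini-Hochberg adjustment over all genes tested and a threshold of 0.05. Standard errors are the log2 fold change over the root of its F statistic. DESeq2 1.42.0 was the alternative test and left 3 members (Gbp2, Cxcl9 and Cxcl10) without an adjusted p. Scripts were tested on simulated data. Depth per library was 20344364 to 43562330 counts, and limits for 0 counts (3 counts) cover counting error only. The members and all gene lists were chosen with earlier results of these data known. Every member is named, with values in every mouse for those past the threshold and for a fixed choice of others, and of the other lists genes past the threshold and a fixed few are named. Alternatives were other scalings, filters, thinning to the smallest library, protein-coding genes only and leaving out mice. The 9 members without a RefSeq promoter window were Dhx58, Zbp1, Usp18, Oas2, Mx1, Mx2, Rtp4, Parp14 and Cxcl11. Of the genes examined beside the members, 1 is not reported here.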

Additional observations from a re-analysis of the deposited data

Results flagged for a closer look

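Cxcl9 in the DMSO mice was set apart by a single mouse. Mouse 480 measured 6.79 CPM and the other 3 DMSO mice between 0.616 and 0.945 CPM, so that its gap to the nearest mouse was 0.947 of the group's range, above Dixon's 95% critical value for 4 samples. It was the only one of 41 measures examined in the DMSO mice to exceed that value, and about 2.05 would do so by chance. The ABT-263 group of 3 mice is too small for this rule.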

How the results depend on the processing

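The number of members called higher was 23 and became 8 with no filter on low counts and 5 without mice 476 and 481 (a choice made after seeing the data), and it ran from 3 to 27 when 1 mouse was left out. It stayed within 1.5 times under the other 6 alternatives (20 to 28), and 0 members were lower in any fit run. Receptor and signaling genes called higher (7) became 4 with no filter and 1 without both mice, and ran from 1 to 8 with 1 mouse left out. Those called lower (1) became 2 by DESeq2's Wald test and with protein-coding genes only, 0 with library size alone, no filter, thinning or both mice out, and ran from 0 to 1. Sensing genes called higher (5) became 3 with DESeq2 size factors, no filter, thinning, protein-coding genes only or both mice out, and ran from 2 to 5. Other interferon-induced genes called higher (23) became 10 with no filter and 8 without both mice, and ran from 5 to 34. Without both mice the median log2 fold change was 0.86 over the members, 0.93 over type I-like, 1.07 over gamma-like and 0.66 over other interferon-induced genes, and the gap between classes was 0.14. With 1 mouse left out these ran from 1.05 to 2.19, 1.16 to 2.15, 1.21 to 3.64, 0.86 to 2.12 and, for the gap, 0.052 to 1.67. Direction reversed without mouse 476 for Ifit1 (-0.10), Ifi35 (-0.15) and Cxcl11 (-0.82), and without both mice for Irf9 (-0.044), Ifit1 (-0.40), Bst2 (-0.087), Ifi35 (-0.22) and Cxcl11 (-1.04). With 1 mouse left out, Ifit1 ran from -0.10 to 0.66, Ifi35 from -0.15 to 0.52 and Cxcl11 from -0.82 to 1.36. Removing the filter raised the number of genes tested to 30645. The cause of the shifts, including the drop from 23 to 8, was not tested. No paired analysis was possible because the groups share no animal number. Library size alone moved the median log2 fold change of all genes by 0.09. With 3 treated mice, 1 of them far from the others, the size of the change is known poorly, and Cxcl11 and the interferon ligands are limited by depth.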
